A study of Mus musculus with 10 samples.

Results

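MET, a receptor tyrosine kinase gene that was injected into the livers of these mice as cMet, was followed through 10 RNA sequencing libraries by 2 features. The first is the row of human MET (ENSG00000105976.10), which is 1 of 57820 rows in the count tables of the 6 diet libraries. The second is the mouse gene Met (ENSMUSG00000009376), 1 of 55385 genes in the count table of the 4 EP300 libraries. Both were chosen by name with their read counts already known, so their own values are described here without a test.

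All mice are labelled as C57BL/6J 129SV and as treated with cMet for 5 months, and the RNA is labelled as liver hepatocyte RNA. In the diet experiment, mice of WT genotype received cMet by hydrodynamic tail vein injection and ate the DDC diet (DDC+Met, 3 libraries) or the normal diet (Met, 3 libraries). DDC is a porphyrinogenic feed additive that causes chronic injury of hepatocytes and bile ducts. In the EP300 experiment, every mouse carried floxed EP300, ate the DDC diet and received the plasmid pT3-cMet. Those labelled EP300-/- were injected with AAV-TBG-Cre (EP300 KO, 2 libraries), and those labelled EP300f/f with AAV-TBG-GFP (EP300 WT, 2 libraries). TBG is a promoter that is active mainly in hepatocytes, so Cre was directed to that cell type. No library without cMet is among the labels, age and sex are not given, and the labels mention pooled sequencing without tying a library to an animal. The spread between libraries may therefore be technical.

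MET is the cell surface receptor of hepatocyte growth factor (HGF), a protein that stellate and other non-parenchymal cells of the liver make as an inactive precursor. Proteases cut the precursor, the active ligand pairs the receptors, and the paired kinases phosphorylate each other on tyrosines of the activation loop and then recruit adaptors such as GAB1 and GRB2. The pathway drives hepatocyte growth in liver regeneration, and forced expression of MET together with a second lesion is widely used to induce liver tumours in mice. Plasmids of the pT3 type carry their insert between transposon ends, so that it can integrate into hepatocyte DNA and stay expressed.

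The labels do not give the species of the cMet insert, and reads of a human insert can be told from reads of mouse Met only where the sequences differ. The mouse side of that comparison is shown here for the stretch that encodes the activation loop, because it is the part of the kinase whose phosphorylation marks an active receptor. It is 90 bases of exon 20 of the 22 exons of transcript Met-203, on the plus strand at chr6:17563579-17563668 (mm10, GENCODE M21), and the capitals mark the codons of the adjacent tyrosines.
Mouse Met: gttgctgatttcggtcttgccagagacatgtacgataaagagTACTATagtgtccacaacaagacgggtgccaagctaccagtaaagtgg
Met itself spans 17463800 to 17573980 on chromosome 6 and has 7 annotated transcripts. It has 7679 exon bases in all, and 0% of them overlap another annotated gene.

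The 2 experiments differ greatly in how many reads reached a gene. In the EP300 table, which uses mouse identifiers, 17709799 and 17811489 reads were counted in EP300 KO and 18575701 and 18831671 in EP300 WT. In the diet tables, which use human-style identifiers, 151777 to 358269 reads were counted in DDC+Met and 116010 to 306998 in Met, and 98.2% to 99.2% of the reads of a library are listed as unmapped. Ep300, the targeted gene, had 1274 and 1258 counts in EP300 KO and 1184 and 1114 in EP300 WT, so its count was no lower under the EP300 KO label (log2 difference 0.28, SE 0.07, higher). The labels do not name the deleted exons, and a count over the whole gene does not show whether they were lost. The higher count did not pass when EP300 WT replicate 2 was left out (adjusted p = 0.128). Xist, the RNA that silences an X chromosome in female cells, had 2310 and 1411 counts in EP300 KO and 3 and 2 in EP300 WT. By this gene the EP300 KO libraries appear female and the EP300 WT libraries do not, although the labels give no sex. The EP300 label, sex and any other difference between these animals cannot be told apart. Directions below are between libraries as labelled. The hepatocyte label was met by abundant Alb, which encodes albumin, at 72600 CPM (counts scaled to 1000000 per library, with TMM factors) on average in EP300 KO and 78200 CPM in EP300 WT. Markers of other liver cell types were present as well and are given with the pathway genes.

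Human MET reads were abundant in 4 of the 6 diet libraries and nearly missing from the other 2, although all 6 are labelled as cMet-treated. The row held 3299, 1382 and 1488 reads in DDC+Met replicates 1, 2 and 3. It held 2749, 4 and 4 reads in Met replicates 1, 2 and 3. Every DDC+Met library thus carried human MET reads in large number, whereas among the Met libraries only replicate 1 did. At the share of all reads found in Met replicate 1, Met replicate 2 would have held 3196 such reads and Met replicate 3 would have held 3243. At the share found in DDC+Met replicate 2, the lowest of the libraries with many reads, they would have held 1246 and 1264. Met replicates 2 and 3 hold 24361946 and 24723415 reads in all, and Met replicate 1 holds 20955737.

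The denominators used for these reads order the libraries differently. Of the reads counted to any row, human MET took 9208, 9105 and 9692 per 1000000 in DDC+Met replicates 1, 2 and 3. It took 23696 per 1000000 in Met replicate 1 (95% Wilson interval 22837 to 24587), 13.4 in Met replicate 2 (5.20 to 34.4) and 13.0 in Met replicate 3 (5.07 to 33.5). On this scale the DDC+Met libraries lie close together and Met replicate 1 lies above all of them. Of all reads in a table, unmapped reads included, human MET took 126, 51.1 and 55.7 per 1000000 in DDC+Met replicates 1, 2 and 3. It took 131 per 1000000 in Met replicate 1, 0.164 in Met replicate 2 (0.0639 to 0.422) and 0.162 in Met replicate 3 (0.0629 to 0.416). On this scale DDC+Met replicate 1 and Met replicate 1 are alike, with a ratio of 0.963 (exact 95% counting interval 0.915 to 1.01), while DDC+Met replicate 1 lies 2.47-fold above DDC+Met replicate 2 (2.32 to 2.63). These intervals cover counting error only.

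**Figure D1:**
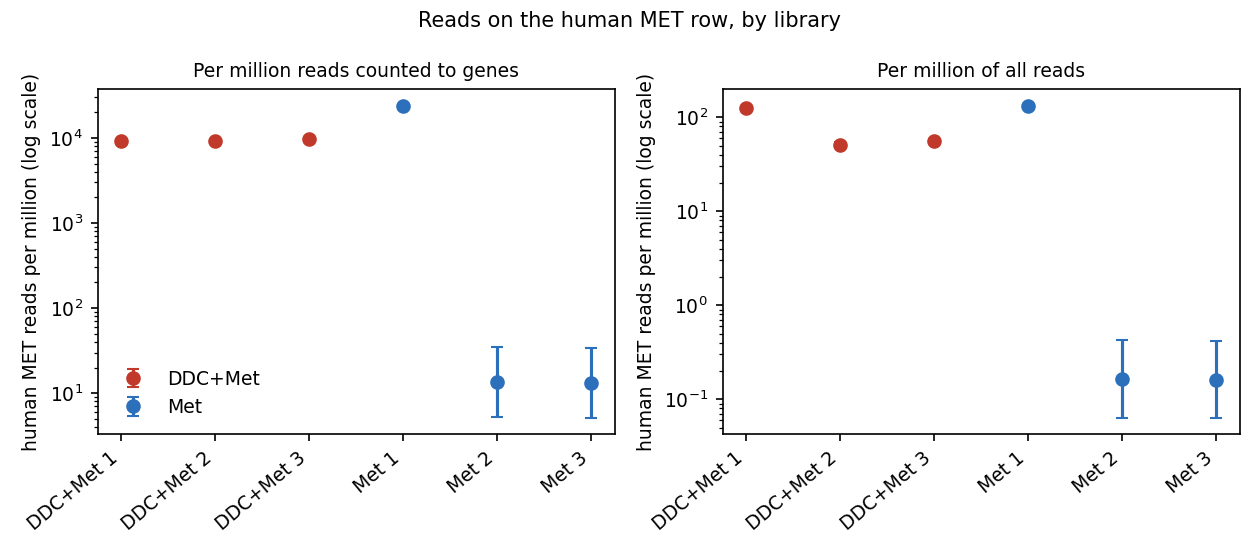
Human MET reads per 1000000 reads counted to genes (left) and per 1000000 of all reads (right) in each of the 6 diet libraries, on log axes, with 95% Wilson intervals of counting error as bars. The 3 DDC+Met libraries and Met replicate 1 lie between 9105 and 23696 per 1000000 counted reads, and Met replicates 2 and 3 at 13.4 and 13.0.

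As groups, DDC+Met averaged 9335 ± 313 human MET reads per 1000000 counted reads (SD, n = 3) and Met averaged 7908 ± 13673 (SD, n = 3). The groups overlap, and the log2 ratio of their means, 0.24, rests on single libraries. Without Met replicate 1 it is 9.47, and without either Met replicate 2 or Met replicate 3 it is -0.34, with the opposite sign. With both of these left out, an alternative chosen after the values were seen, the log2 ratio against Met replicate 1 alone is -1.34 per counted read and -0.76 per read of the whole table. No level of cMet under DDC relative to the normal diet can be read from these libraries. Relative to Met replicate 2, Met replicate 1 held 799-fold more human MET per read of the whole table (exact 95% counting interval 312 to 2934), and relative to Met replicate 3 it held 811-fold more (316 to 2978).

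Within each library, human MET ranked among the most heavily read rows or far down the list. It was row 8 by read count in DDC+Met replicate 1, row 12 in replicate 2 and row 11 in replicate 3. It was row 2 in Met replicate 1, where it took 2.37% of all counted reads and only 1 row, with 2939 reads, held more. In Met replicates 2 and 3 it ranked 2990 and 3026, tied with other rows of 4 reads, among 4645 and 4642 rows with at least 1 read. The median row with at least 1 read held 11, 7 and 7 reads in DDC+Met replicates 1, 2 and 3, and 6, 10 and 10 in Met replicates 1, 2 and 3. The row therefore stood 197 to 300 times above the median row in DDC+Met and 458 times above it in Met replicate 1, and below the median row in the other Met libraries. Ranks by read count take no account of transcript length. These mouse libraries were counted on rows with human-style identifiers, and 0.554% to 1.37% of the reads of a library reached a row. The ranks, shares and multiples therefore set human MET against that small part of the reads. They do not give its place among all genes expressed in these livers.

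The reads on human MET were divided evenly between the strands. The first of the stranded columns held 1651, 689 and 777 of them and the second 1648, 693 and 711 in DDC+Met replicates 1, 2 and 3. In Met replicate 1 the columns held 1382 and 1367, in Met replicate 2 they held 2 and 2, and in Met replicate 3 they held 4 and 0. The first strand took 49.9% to 52.2% of the reads in the 4 libraries with many reads, with 49.7% to 54.7% as the 95% Wilson interval of DDC+Met replicate 3, the library farthest from an even split. Over all rows of a library that share was 49.8% to 50.3%. In all 6 libraries the stranded counts of human MET add up to its unstranded count, so none of its reads needed the strand to be told from those of an overlapping annotated gene.

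The other rows of the tables also set Met replicate 1 apart from the libraries that share its label. Across the 2065 rows that passed a filter on low counts, with human MET left out, log2 CPM of Met replicate 1 correlated at 0.893 and 0.894 with DDC+Met replicates 2 and 3, and at 0.757 and 0.745 with Met replicates 2 and 3 (Pearson's r). DDC+Met replicate 1 correlated at 0.839 and 0.821 with the other two DDC+Met libraries, and at 0.891 and 0.889 with Met replicates 2 and 3. The closest pairs were Met replicates 2 and 3 at 0.973 and DDC+Met replicates 2 and 3 at 0.947. These are correlations across rows, which share library depth and are not independent. They follow the number of counted reads, which was 358269 in DDC+Met replicate 1 and 299002 and 306998 in Met replicates 2 and 3. It was 151777 and 153524 in DDC+Met replicates 2 and 3 and 116010 in Met replicate 1. Likeness of the other rows and depth of counted reads therefore cannot be told apart in these libraries. The counted share divided the libraries the same way, with 1.37% of all reads in DDC+Met replicate 1 and 1.23% and 1.24% in Met replicates 2 and 3, against 0.561% and 0.574% in DDC+Met replicates 2 and 3 and 0.554% in Met replicate 1. The counts of Met replicates 2 and 3 differed by more than sampling noise (chi-square per degree of freedom 1.63, against 1.75 for DDC+Met replicates 2 and 3), so they were kept as separate libraries.

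**Figure D2:**
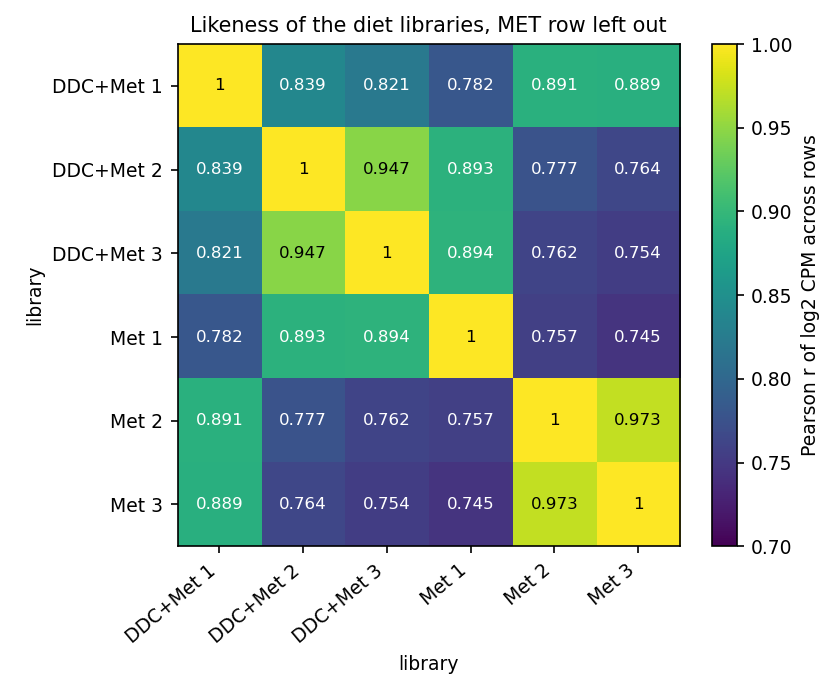
Pearson correlation of log2 CPM across 2065 rows between each pair of diet libraries, with the human MET row left out. Met replicate 1 is closer to DDC+Met replicates 2 and 3 (0.893 and 0.894) than to Met replicates 2 and 3 (0.757 and 0.745).

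Human MET did not follow that division. DDC+Met replicate 1, which resembles Met replicates 2 and 3 in its other rows and in its counted share, held 3299 human MET reads where they held 4 each. The rows whose pattern was nearest to human MET, by Euclidean distance in centred log2 CPM over the 6 libraries, were still far from it, at 6.04 and 6.25 log2 units. The nearest, ENSG00000125675.13, held 68, 18 and 20 reads in DDC+Met replicates 1, 2 and 3 and 31, 1 and 1 in Met replicates 1, 2 and 3. The second, ENSG00000173406.11, held 22, 17 and 26 reads in DDC+Met and 15, 0 and 0 in Met. Both are also low in Met replicates 2 and 3, but at read counts many times smaller than those of human MET, and neither identifier is annotated in the sources used here.

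**Figure D3:**
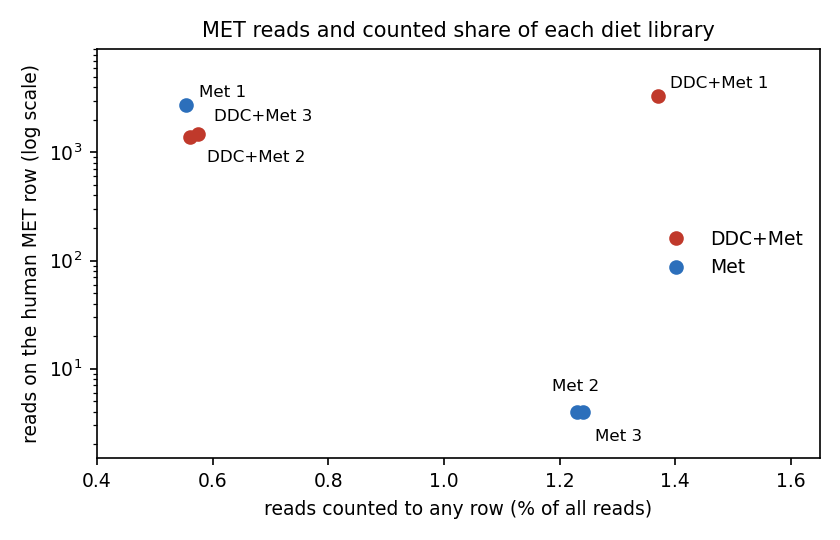
Reads on the human MET row (log axis) against the percentage of all reads that were counted to any row, for each of the 6 diet libraries. DDC+Met replicate 1, at 1.37% counted, holds 3299 human MET reads, and Met replicates 2 and 3, at 1.23% and 1.24%, hold 4 each.

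For the labels, this leaves 4 libraries whose reads carry human MET as their cMet label would have it, if the insert was the human sequence, and 2 libraries labelled Met that carry almost none. The series' design text names a normal diet group and a DDC injury group besides the group given DDC with cMet, while the labels of the 6 diet libraries name only Met and DDC+Met. No library was moved to another group here. A comparison of DDC+Met with Met in these tables sets 3 libraries with human MET reads against 1 with and 2 almost without, and diet and the presence of human MET reads cannot be told apart in it. Met replicate 1 is the only library with many human MET reads that is labelled for the normal diet, and in its other rows and its counted share it lies nearer to DDC+Met replicates 2 and 3 than to the libraries of its own label, as DDC+Met replicate 1 lies nearer to Met replicates 2 and 3. That likeness cannot be told apart from the number of counted reads. The tables alone do not settle the labels of Met replicates 1, 2 and 3 and of DDC+Met replicate 1, which would need to be checked with the submitters.

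Mouse Met could be followed in the EP300 experiment, and it stood at much the same level in all 4 libraries. It had 990 and 1096 counts in EP300 KO and 1144 and 1083 in EP300 WT. Scaled by TMM, these were 57.3 and 63.0 CPM in EP300 KO and 60.2 and 56.3 CPM in EP300 WT, or 60.1 ± 4.04 CPM against 58.3 ± 2.80 CPM (SD, n = 2 each). The groups overlap, since the EP300 KO libraries hold both the highest value and the second lowest. The log2 fold change of EP300 KO over EP300 WT was 0.05, and 10.5% of the 14200 genes tested had a smaller absolute change. It was -0.02 with library size as the only scaling, so it has no stable direction. Whether reads of a human insert were counted to mouse Met in this table is not known, and the table has no row for human MET, so these values give neither the level of the plasmid gene nor that of mouse Met without it. For scale, mouse Met took 55.9 to 61.6 per 1000000 of the counted reads of the EP300 libraries, and the human row took 0.162 to 131 per 1000000 of all reads of the diet libraries. The tables were made separately and these shares have different denominators.

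Per kilobase of exon, mouse Met stood in the upper part of a chosen list of receptor tyrosine kinase genes. It stood at 7.46 and 8.20 CPM per kilobase in EP300 KO and at 7.85 and 7.33 in EP300 WT, above 71.5% to 73.4% of all genes tested in a library. Among 28 receptor tyrosine kinase genes tested in these libraries it was the ninth by mean level. Egfr, the receptor of epidermal growth factor and the other main growth factor receptor of hepatocytes, led with 47.5 and 40.4 CPM per kilobase in EP300 KO and 29.4 and 29.2 in EP300 WT. Directly above Met was Insr, the insulin receptor, with 8.42 and 8.46 CPM per kilobase in EP300 KO and 11.7 and 11.3 in EP300 WT. Directly below it was Ephb4, an ephrin receptor, with 7.27 and 6.78 CPM per kilobase in EP300 KO and 7.97 and 7.75 in EP300 WT. The values of Ephb4 overlap those of Met, and no other receptor's range over the 4 libraries did. Mst1r, the closest relative of Met and the receptor of macrophage-stimulating protein, was far lower, at 0.428 and 0.482 CPM per kilobase in EP300 KO and 1.20 and 1.12 in EP300 WT.

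**Figure D4:**
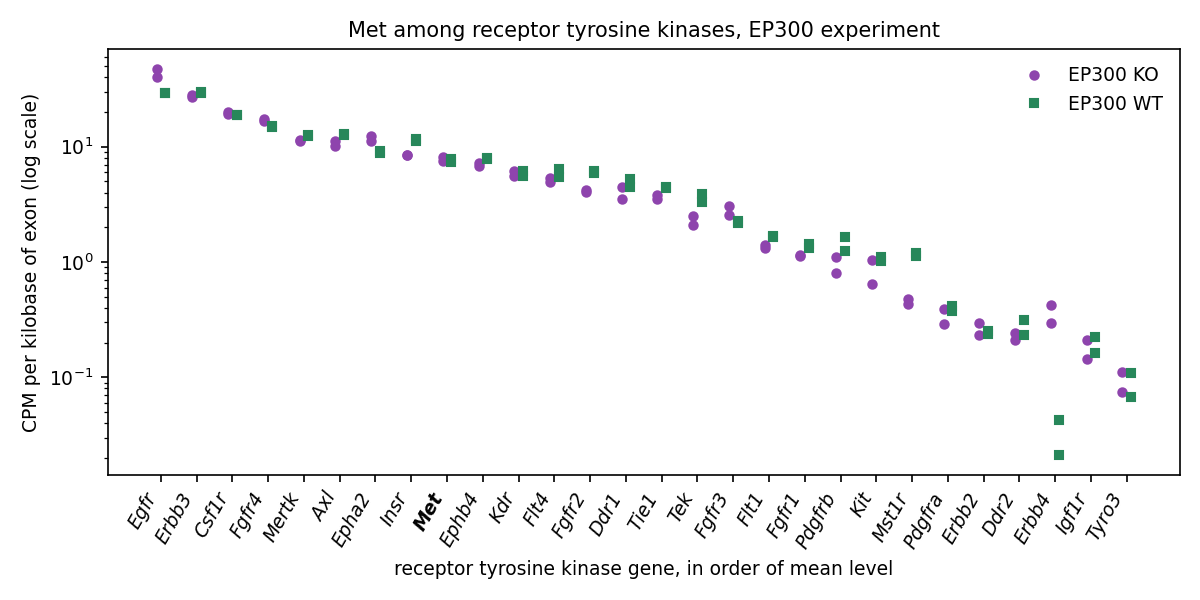
CPM per kilobase of exon (log axis) of 28 receptor tyrosine kinase genes in the EP300 KO libraries (circles) and the EP300 WT libraries (squares), ordered by mean level over the 4 libraries. Met is the ninth, at 7.33 to 8.20, and overlaps only Ephb4.

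The genes nearest to Met in level and pattern, by distance in log2 CPM per kilobase over the 4 libraries, were Rsl24d1 (0.0667), Pcmt1 (0.0782) and Znrf2 (0.0783). Rsl24d1, a ribosome assembly factor, stood at 7.18 and 8.24 CPM per kilobase in EP300 KO and 7.92 and 7.51 in EP300 WT. Of 14124 genes compared, 5 lay within 0.1 log2 units of Met. With 4 libraries this describes a like level and a like lack of change and no more.

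Of the genes beside Met on chromosome 6, some were lower in the libraries labelled EP300 KO. Of 8 listed neighbours, 6 passed the filter on low counts, 3 were lower and 0 higher (edgeR quasi-likelihood test, Benjamini-Hochberg adjusted p under 0.05 over 14200 genes, of which 34.2% passed, 17.5% as lower). The counts of Asz1 and Cftr were at most 6 in any library, and neither was tested. Cav1, which encodes the coat protein of caveolae, had 18 and 8 counts in EP300 KO and 54 and 64 in EP300 WT, a log2 difference of -2.03 (SE 0.35, edgeR adjusted p = 0.000310). Its partner Cav2 had 95 and 81 counts in EP300 KO and 152 and 147 in EP300 WT, a log2 difference of -0.62 (SE 0.17, edgeR adjusted p = 0.00821). Cav2 did not pass in edgeR without a filter (adjusted p = 0.0533) or with the DESeq2 test (adjusted p = 0.0615). Tes, a focal adhesion gene, had a log2 difference of -0.59 (SE 0.13, edgeR adjusted p = 0.00294). Capza2, which encodes a subunit of the actin capping protein and lies next to Met on the other side, had 1241 and 1127 counts in EP300 KO and 1334 and 1441 in EP300 WT, a log2 difference of -0.09 (edgeR adjusted p = 0.391). The call of Cav2 was lost when EP300 WT replicate 1 was left out (adjusted p = 0.0982) and when EP300 WT replicate 2 was (adjusted p = 0.0809), and that of Tes was lost in the second case (adjusted p = 0.0772).

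The other genes of the pathway changed about as often as genes at large. Of 69 listed genes, 68 were tested, 13 were higher and 14 lower in EP300 KO, 39.7% in all, against 34.2% of all genes tested, 16.7% higher and 17.5% lower. Their median log2 fold change was -0.04, beside -0.01 over all genes tested. With library size as the only scaling, 9 were higher and 22 lower, and over all genes 1846 were higher and 3056 lower, against 2366 and 2485 with TMM. Without EP300 WT replicate 1, 9 of the 68 passed, which is 13.2% against 17.8% of all genes in the same fit. Without EP300 WT replicate 2, 8 passed, which is 11.8% against 15.7%. In both fits the share of the pathway was thus below that of all genes.

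Among ligands and the proteins that activate or inhibit them, 5 of 11 were higher, 1 was lower and 5 did not pass. Their median log2 fold change was 0.15, and 54.5% were called, beside 34.2% of all genes tested, 16.7% as higher. With library size as the only scaling 3 were higher. Hgf, the ligand, was scarce and had 185 and 164 counts in EP300 KO and 190 and 180 in EP300 WT, a log2 difference of 0.06 (SE 0.13, edgeR adjusted p = 0.785). Mst1, the ligand of the related receptor, rose by 0.17 (SE 0.06, edgeR adjusted p = 0.0352), and Hgfac, a protease that activates HGF, fell by 0.24 (SE 0.06, edgeR adjusted p = 0.00423). Plau, which encodes urokinase, had 132 and 123 counts in EP300 KO and 77 and 80 in EP300 WT and rose by 0.84 (SE 0.17, edgeR adjusted p = 0.00136). Klkb1, which encodes plasma prekallikrein, rose by 0.65 (SE 0.08), and overlaps another annotated gene over 43.2% of its exon bases, whereas Plg, which encodes plasminogen, rose by 0.21 (SE 0.05). The protease inhibitors Spint1 and Spint2 had log2 fold changes of -0.46 (SE 0.43, edgeR adjusted p = 0.453) and -0.05 (SE 0.06, edgeR adjusted p = 0.607). Leaving out EP300 WT replicate 1 ended the calls of Mst1 (adjusted p = 0.148), Hgfac (0.125) and Plg (0.0669). Leaving out EP300 WT replicate 2 ended them as well (0.270, 0.107 and 0.111), and Mst1 also failed with library size as the only scaling (0.201).

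Among membrane partners, 5 of 14 were lower, 2 were higher and 7 did not pass. Their median log2 fold change was -0.20, and 50% were called, beside 34.2% of all genes tested, 17.5% as lower. With library size as the only scaling 8 were lower. Mst1r had 37 and 42 counts in EP300 KO and 114 and 108 in EP300 WT, a log2 difference of -1.35 (SE 0.21, edgeR adjusted p = 0.000127). Cdh1, which encodes E-cadherin, had 1376 and 1594 counts in EP300 KO and 3131 and 2985 in EP300 WT and fell by 0.90 (SE 0.07, edgeR adjusted p = 7.96e-08). Plxnb1, a semaphorin receptor that can bind MET, fell by 0.58 (SE 0.07, edgeR adjusted p = 5.28e-06). Egfr went the other way, with 9303 and 7960 counts in EP300 KO and 6333 and 6359 in EP300 WT, and rose by 0.58 (SE 0.07, edgeR adjusted p = 6.06e-06).

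Among adaptors and downstream signalling genes, 6 of 29 were higher, 4 were lower and 19 did not pass. Their median log2 fold change was -0.01, and 34.5% were called, beside 34.2% of all genes tested. With library size as the only scaling 4 were higher and 8 lower. Gab1, the docking adaptor that MET binds directly, had 321 and 354 counts in EP300 KO and 484 and 468 in EP300 WT and fell by 0.36 (SE 0.10, edgeR adjusted p = 0.00858). Stat3, a transcription factor, fell by 0.39 (SE 0.06), and Sos1, an exchange factor that activates RAS, rose by 0.39 (SE 0.10). Without EP300 WT replicate 1, Gab1 (adjusted p = 0.133) and Sos1 (0.0917) did not pass, and without EP300 WT replicate 2 their adjusted p was 0.0897 and 0.0976.

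Among genes that restrain MET, 4 of 14 tested were lower, 0 were higher and 10 did not pass. Their median log2 fold change was -0.08, and 28.6% were called, beside 34.2% of all genes tested, 17.5% as lower. With library size as the only scaling 5 were lower. The mucin gene Muc20 had 0 counts in all 4 libraries. Cd2ap, an adaptor in receptor endocytosis, had 766 and 782 counts in EP300 KO and 1429 and 1407 in EP300 WT and fell by 0.73 (SE 0.07, edgeR adjusted p = 5.64e-07). Cbl, the ubiquitin ligase that marks MET for degradation, had 345 and 353 counts in EP300 KO and 444 and 471 in EP300 WT and fell by 0.25 (SE 0.09, edgeR adjusted p = 0.0484). Adam10, a protease that sheds membrane receptors, fell by 0.29 (SE 0.08), and Ptprj, a receptor phosphatase that acts on MET, fell by 0.23 (SE 0.07). Leaving out EP300 WT replicate 1 ended the calls of Cbl (adjusted p = 0.164), Adam10 (0.0614) and Ptprj (0.170), and leaving out EP300 WT replicate 2 did so as well (0.307, 0.195 and 0.156). For Cbl the same held on leaving out EP300 KO replicate 1 (0.103) or its partner replicate 2 (0.0579), and with DESeq2 size factors (0.0526).

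**Figure D5:**
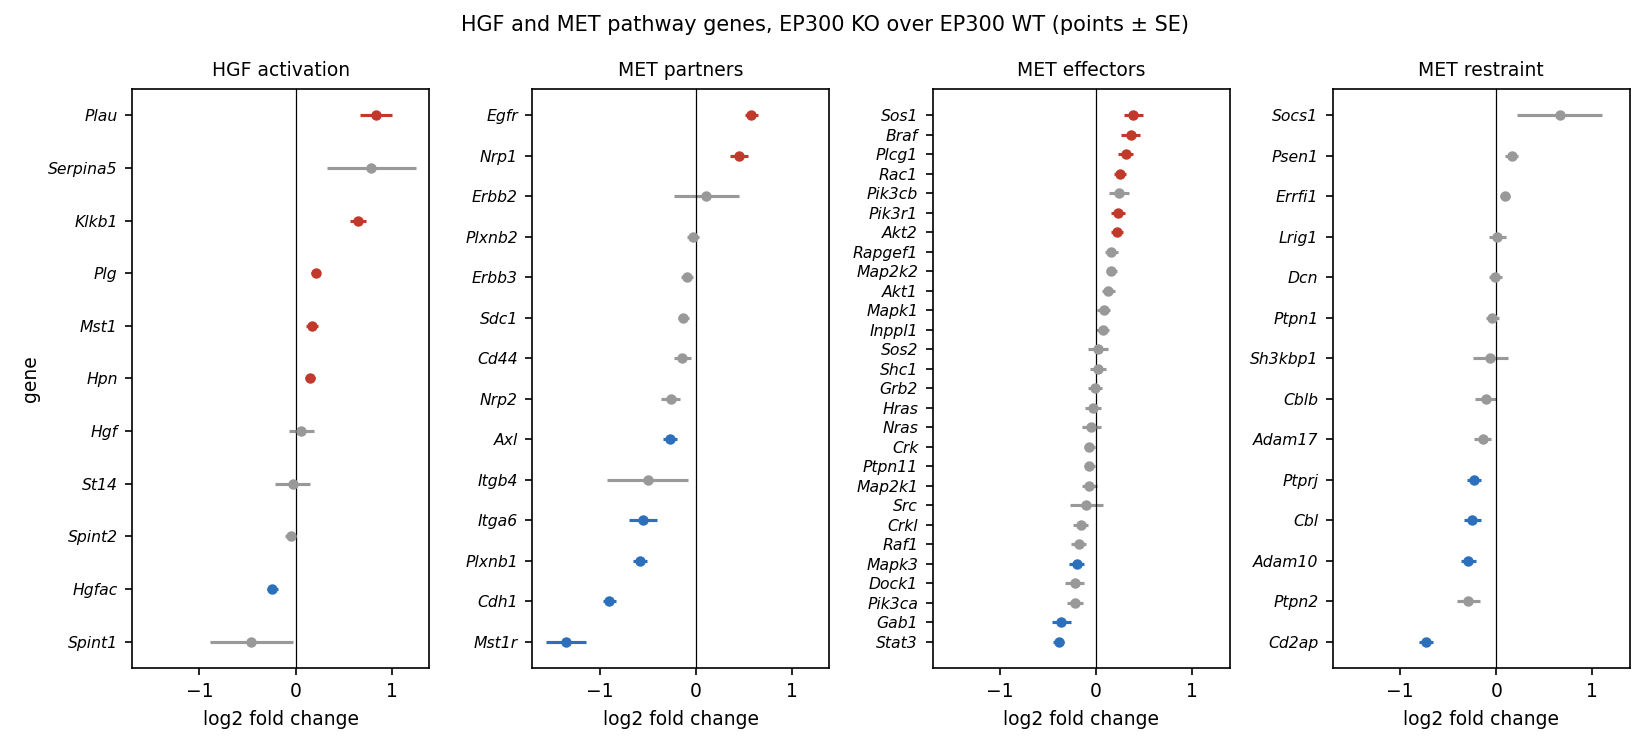
Log2 fold change of EP300 KO over EP300 WT with its SE for 67 of the 68 tested genes of the HGF and MET pathway, by role. Red points were higher and blue points lower at an edgeR adjusted p under 0.05, and grey points did not pass. Of the 67 drawn, 13 were higher and 13 lower.

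The cells had been sorted from perfused liver, by a gate that the labels do not describe, and the RNA is labelled as hepatocyte RNA. Markers of other liver cell types were nevertheless detected, and some differed between the same libraries, where 17.5% of all genes tested were lower and 16.7% higher. The 6 endothelial markers summed to 227.2 and 203.1 CPM in EP300 KO and 262.9 and 257.6 in EP300 WT, with 3 lower and 0 higher. The 6 stellate cell markers summed to 140.9 and 132.1 CPM in EP300 KO and 233.9 and 228.2 in EP300 WT, with 3 lower and 0 higher. Reln, which leads them, had 534 and 572 counts in EP300 KO and 2258 and 2172 in EP300 WT. Without Reln the other 5 summed to 110 and 99.29 CPM in EP300 KO and 115 and 115.4 in EP300 WT. Reln thus carries most of the difference in the sum. Most of the sum left without Reln, though not of its difference, is Dcn, at 85.4 and 74.8 CPM in EP300 KO and 79.4 and 82.1 in EP300 WT. Acta2, with 16 and 9 counts in EP300 KO and 59 and 41 in EP300 WT, was also lower (log2 difference -1.85, edgeR adjusted p = 0.00108). So was Col1a1 (log2 difference -0.51, edgeR adjusted p = 0.00177), whereas Dcn, Des and Lrat did not pass. Without a filter on low counts Col1a1 did not pass either (edgeR adjusted p = 0.0516). Without EP300 WT replicate 1 the log2 differences were -1.55 for Acta2 and -0.41 for Col1a1. Of the 7 biliary markers, 5 were tested, and these summed to 110.9 and 111.5 CPM in EP300 KO and 141.1 and 141.8 in EP300 WT, with 2 lower and 1 higher. The lower sum comes from Spp1, at 95.6 and 95.8 CPM in EP300 KO and 126 and 128 in EP300 WT. Of the other tested biliary markers, Sox9 was lower (log2 difference -0.78), Cldn4 was higher (1.28) and the rest did not pass. The 6 macrophage markers summed to 396.9 and 398.5 CPM in EP300 KO and 457.7 and 455.5 in EP300 WT, with 2 higher and 1 lower. Marco, a scavenger receptor of Kupffer cells, had 711 and 483 counts in EP300 KO and 102 and 117 in EP300 WT. The lower sum comes from Cd5l, a secreted macrophage protein, at 152 and 162 CPM in EP300 KO and 253 and 256 in EP300 WT. The other 5 summed to 244.7 and 236.4 CPM in EP300 KO and 205 and 199.6 in EP300 WT, the opposite direction. The 5 lymphocyte markers were too low to test, with at most 8 counts in any library. The 8 hepatocyte markers summed to 99220 and 102100 CPM in EP300 KO and 107600 and 106900 in EP300 WT, yet 5 of them were higher and 2 lower, with a median log2 fold change of 0.24. The lower ones were the abundant Alb and Apoa1, and without them the other 6 summed to 18500 and 17800 CPM in EP300 KO and 13370 and 13240 in EP300 WT. These sums without single genes were added after the values were seen. Fewer cells of a type and less RNA per cell cannot be told apart in libraries made from many cells, and the part of these markers in the pathway changes was not tested.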

How the data were processed

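The authors deposited raw whole-number read counts per gene, as 6 per-library tables with human-style identifiers and 1 EP300 table with mouse identifiers. Per the submitters' processing notes, STAR, HTSeq, DESeq2 and mm10 were used, with no role given. The annotation and strand setting are not given in the sources used here. Per the labels' protocols, perfused livers gave sorted cells, whose RNA went through an Illumina TruSeq RNA preparation. The human MET row was identified by its Ensembl identifier, for which no reference table was at hand. For the same reason its level was not compared with mouse genes across tables. In the EP300 table, 4 columns match no sample and were not used, and 55144 identifiers matched a GENCODE M21 symbol. Groups were taken from sample titles.

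The 4 rows of reads not counted to genes were left out of counted totals. EP300 KO was compared with EP300 WT across all genes in R 4.3.3 with the quasi-likelihood test of edgeR 4.0.16 after TMM scaling. Genes were kept by filterByExpr (minimum count 10), the model held only the label and left 2 residual degrees of freedom, and Benjamini-Hochberg adjusted p-values under 0.05 passed. Fold changes are log2, and SE is the absolute fold change over the square root of F. The fit was tested on simulated data. Intervals are at the 95% level. Alternatives used DESeq2 1.42.0, limma-voom 3.58.1, other scalings and filters, both stranded columns, a block for the replicate number, and fits without single libraries. Members and gene lists were chosen with earlier results of these data known. Named were a fixed set (Ep300, Hgf, Mst1, Hgfac, Spint1, Spint2, Mst1r, Egfr, Gab1, Cbl, Cav1 and Capza2) and up to 4 passing genes of each list with the largest change. Some cell type markers picked by this rule are not described in the text and enter only the tally of named genes under alternatives. The 3 genes nearest to mouse Met and the 2 rows nearest to human MET were named by distance. Xist, Alb, stellate markers that did not pass, receptors next to Met in level and genes too low to test were named after their values were seen. 1 downstream signalling gene that the rule would name is counted but not reported here.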

Additional observations from a re-analysis of the deposited data

How the results depend on the processing

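The log2 ratio of human MET per counted read, DDC+Met over Met, was 0.24. Leaving out single libraries gave -0.34 to 9.47, it was 7.73 with the replicate number as a block, and -1.34 without Met replicates 2 and 3 (-0.76 per read of the whole table). Without Met replicate 1 it was 8.90 per read of the whole table. The stranded columns and the other scalings gave 0.16 to 0.83. The change of mouse Met was 0.05, also with the block, and -0.02 to 0.12 over the other alternatives in which it was followed. It was not followed in the DESeq2 test, in limma-voom or with the stricter filter. In the EP300 comparison 4851 genes passed, 5190 with the block, 2703 without a filter and 2306 to 5154 with a library left out. Of the pathway genes 27 passed, 26 with the block, 13 without a filter, 18 with DESeq2 and 8 to 30 with a library left out, with the 8 and 9 found without an EP300 WT replicate. The cause of these drops was not tested. Of 474 values of 44 named genes under alternatives, 414 kept direction and side of the threshold, 56 lost their call and 4 changed sign. The last were Hgf at -0.01 (library size) and -0.03 (without EP300 KO replicate 1; -0.03 to 0.15 over left-out libraries), and Spint2 at 0.01 (without EP300 KO replicate 1) and 0.03 (without EP300 WT replicate 2; -0.11 to 0.03 over left-out libraries), none of which passed. Deviations of same-numbered libraries from the mean of their label correlated at -0.00075 in the EP300 experiment and -0.628 to -0.379 in the diet experiment. With 2 libraries of each EP300 label the deviations mirror each other, so both numbers give the same value there. In the diet experiment same-numbered libraries deviated in opposite directions. These values cannot decide whether libraries of the same number were paired. The comparison across species was not run. Having 4 reads a library limits the level of human MET in Met replicates 2 and 3 to the intervals given.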

Other observations

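Receptor tyrosine kinases other than Met changed in both directions between the EP300 libraries. Of 27 tested, some of them also among the membrane partners above, 5 were higher and 8 lower in EP300 KO, with a median log2 fold change of -0.19 (edgeR adjusted p under 0.05, which 34.2% of all genes reached). With library size as the only scaling, 3 were higher and 14 lower. Erbb4, a neuregulin receptor, had 90 and 64 counts in EP300 KO and 10 and 5 in EP300 WT, a log2 difference of 3.48 (SE 0.37, edgeR adjusted p = 1.99e-06). Tek, the angiopoietin receptor of endothelial cells, fell by 0.65 (SE 0.13, edgeR adjusted p = 0.000918), a call that was lost on leaving out EP300 WT replicate 1 (adjusted p = 0.0563). Without a filter on low counts Tek did not pass either (edgeR adjusted p = 0.0539). Pdgfrb, a receptor of stellate cells and pericytes, had 104 and 77 counts in EP300 KO and 170 and 132 in EP300 WT and fell by 0.60 (SE 0.19, edgeR adjusted p = 0.0234). Its call was lost in 5 alternatives, with adjusted p = 0.109 on leaving out EP300 KO replicate 2, 0.314 on leaving out EP300 WT replicate 1 and 0.0646 on leaving out EP300 WT replicate 2.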
